A study of Mus musculus with 47 samples.

Results

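The transcripts that carried newly made RNA after 9 h of metabolic labeling were compared between 2 states of P19, a line of mouse embryonal carcinoma that takes a neuronal fate with retinoic acid. The members were 6 of the 47 libraries of the series, chosen by their labels as the labeling (anabolic) assay at 9 h: 3 libraries of undifferentiated cells (D0, replicates 70, 71 and 72) and 3 libraries of neuronal differentiation (D6, replicates 52, 53 and 54). Both states were wild-type P19 cells given 4-thiouridine (4sU), a uridine analog that cells build into new RNA, at 20 µM for D0 and 500 µM for D6. D0 cells grew in DMEM with fetal bovine serum, and D6 cells were at day 6 of culture in serum-free NDiff 227 medium with 500 nM retinoic acid. The dose of 4sU, the medium and the state changed together, so their parts in any difference cannot be told apart. The study describes its replicates as biological, and the labels do not say whether each library came from its own culture, so p-values measure the spread between these libraries. In bulk RNA, fewer cells of a type and less RNA per cell cannot be told apart either.

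In SLAM-seq, iodoacetamide alkylates the 4sU in extracted RNA, reverse transcriptase then reads it as C, and a new molecule is recognised by a T-to-C conversion. QuantSeq libraries hold reads from the 3′ end of each polyadenylated transcript, so the number of reads does not grow with the transcript's length. Reads with at least 1 conversion are called new reads, and a transcript's new RNA share is its new reads per 1000000 new reads of that library, written RPM. Its read share is the same quantity over all reads, old and new. Folds given as a bound or with a counting interval compare new reads summed over the libraries of each state, per summed new reads. They can differ from ratios of the libraries' mean shares. Retinoic acid acts through a pair of nuclear receptors (RAR and RXR) that sits on DNA repeats near target genes. Among these targets are Hox genes, the enzymes that break retinoic acid down and the receptors themselves. A share of new reads after 9 h reflects both synthesis and loss of RNA during that time.

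The D6 libraries held 4466071, 1504166 and 3715703 reads on 3′ UTR intervals (replicates 52, 53 and 54), and the D0 libraries 7062460, 11677046 and 6680757 (replicates 70, 71 and 72). Of these, 56.7, 42.8 and 52.3% were new reads at D6 and 24.8, 24.7 and 24.6% at D0. The groups did not overlap, with 50.6% ± 7.12 (SD, n = 3) at D6 and 24.7% ± 0.0918 (SD, n = 3) at D0, a difference of 25.9 percentage points. The exact two-sided permutation test over libraries gave p = 0.1, the smallest that 3 against 3 can reach. Without 4sU, 3.90% ± 0.521 (SD, n = 3) of reads at D6 and 4.04% ± 0.572 (SD, n = 3) at D0 carried a conversion, which is the background of the assay. A new read held 1.68 ± 0.0506 conversions at D6 and 1.17 ± 0.00664 at D0 (SD, n = 3 each). D6 replicate 53 stood apart, with 643783 new reads and 3696 of 8426 tested groups of overlapping transcripts without a new read, against 957 and 1530 in the other D6 libraries and 247 to 286 at D0. Its new shares correlated with those of the other D6 libraries at a Spearman rho of 0.463 to 0.479 across 6678 transcript groups, while the other D6 libraries correlated with each other at 0.719 and the D0 libraries at 0.771 to 0.848. Counts of list members that passed in new share are therefore also given without it where they differ.

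**Figure D1:**
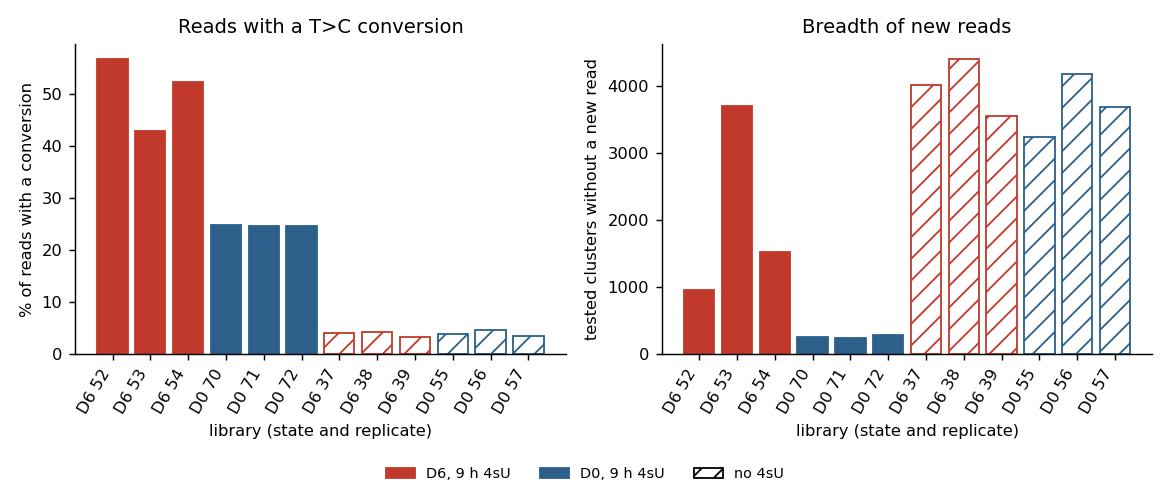
The left panel plots the percent of reads with a T-to-C conversion per library, with and without 4sU, and the right panel how broadly new reads were spread over transcripts. The 3 labeled D6 libraries lie at 42.8 to 56.7%, all above the 3 labeled D0 libraries at 24.6 to 24.8%, and among the labeled libraries D6 replicate 53 has the most tested transcript groups (clusters) without a new read, 3696.

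The labels were checked against marker genes. The neuronal markers Map2, Tubb3, Dcx, Stmn2, Elavl3 and Elavl4 had higher new shares in every D6 library than in any D0 library. Snap25, a synaptic vesicle fusion protein, did not pass the test (adjusted p = 0.425), with 50.9, 1.55 and 43.8 RPM at D6 and 0, 0 and 6.07 at D0. Of the undifferentiated markers, Utf1 had no new read at D6 and 225, 174 and 312 RPM at D0, and Lin28a and Tdgf1 were also lower in every D6 library. Pou5f1 was low, at 62.7, 24.9 and 12.1 RPM in the D0 libraries, and had no new read at D6. Its difference of at least 54.8-fold did not pass the test (adjusted p = 0.0596), but did with DESeq2 (adjusted p = 0.00334), with a stricter filter (adjusted p = 0.0391) and with the background subtracted (adjusted p = 0.0103). Nanog was too low to test, with 186 reads and 14 new reads over the D0 libraries and none at D6. Dppa5a and Zfp42, defining markers of naive pluripotent cells, had no read in any of the 6 libraries. Of the other cell types, glial genes summed to 0.0328, 0.0464 and 0.0264% of new reads at D6 and 0.0218, 0.0235 and 0.0233% at D0, and 9 of 13, Gfap, Sox10 and Olig1 among them, had no new read at D6. Of these 9, 7 had no read in any of the 6 libraries, Sox10 and Olig1 among them, so they do not separate the states. Of the 4 glial genes tested, 2 had a log2 difference above 0 and 2 below, and 1 rose (Slc1a2, given below). Endoderm genes summed to 0.0507, 0.0612 and 0.0569% and 0.120, 0.106 and 0.191%, with 10 of 15 at 0 at D6, among them Sox17, Afp and Gata4. Of these 10, 5 had no read in either state, Sox17 and Afp among them. Mesoderm and mesenchyme genes summed to 0, 0 and 0.00134% and 0.0243, 0.0117 and 0.0197%, with 13 of 15 at 0 at D6, among them T, Myod1 and Pecam1. Of these 13, 6 had no read in either state, Myod1 and Pecam1 among them.

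Of 28190 RefSeq protein-coding (NM) transcripts, 13100 had enough new reads to be tested, and they stood for 8357 genes with 1 transcript each. The new share differed for 639 transcripts (4.88%), 331 higher and 308 lower at D6, by edgeR's quasi-likelihood test with Benjamini-Hochberg adjustment. As genes, 189 rose (2.26%) and 197 fell (2.36%). In the read shares of the same libraries, 1576 of the same 13100 transcripts differed (12%), 878 higher and 698 lower, and as genes 521 rose (6.23%) and 462 fell (5.53%). The median gene differed by a log2 value of -0.39 in new share and -0.17 in read share, so the typical gene lay slightly below its D0 share. Without D6 replicate 53, 1361 of the 13100 transcripts differed in new share, 536 higher and 825 lower. Counts of list members below are to be read beside these shares. The 3 D6 and 3 D0 new shares did not overlap for 2941 of the 8357 genes (35.2%), and all 386 genes called were among them.

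Low counts and conversions that do not come from the label set limits on these calls. A gene with few new reads in either state cleared the filter on low counts through the other and could pass only in that direction. Among the genes with no new read in any D6 library, 50 of the 140 below 20 RPM at D0 were called lower, 0 of the 210 from 20 to 60 RPM, and 36 of the 44 above. DESeq2 called 34, 210 and 44 of these genes. With D6 replicate 53 left out, 0, 102 and 44 were called, so no gene of the lowest group was called without that library. Over 20% of reads carried a conversion without 4sU for 527 of the 8357 genes (6.31%), and these were 10 of the 189 that rose and 25 of the 197 that fell.

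**Figure D2:**
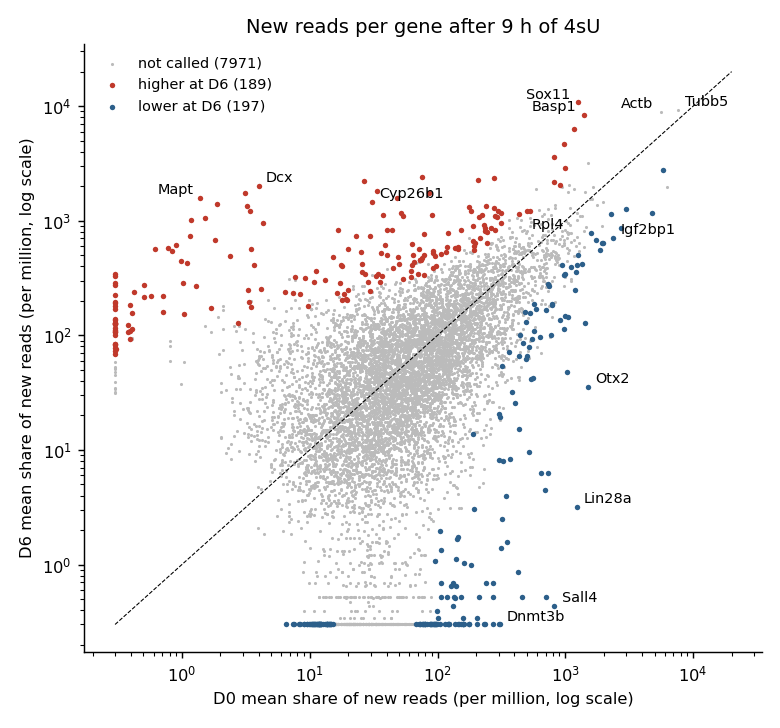
Each point is a gene, with its mean share of new reads at D0 on the horizontal axis and at D6 on the vertical axis, both in RPM of new reads on log scales, and colours mark genes called higher or lower at D6. The 189 genes that rose lie above the diagonal and the 197 that fell below it, and genes without a new read in a state lie along the edge.

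The new RNA of each state was led by a few abundant genes, and the 100 largest took 18.4% ± 1.498 of new reads at D6 and 15.1% ± 1.32 at D0 (SD, n = 3 each). At D6 the largest share was that of Sox11, a SoxC transcription factor of young neurons, at 10483, 10358 and 11471 RPM in the D6 libraries and 1232, 1113 and 1389.7 at D0. Every D6 library lay far above every D0 library, and the share rose (log2 difference 3.11, SE 0.17, adjusted p = 1.89e-05). It was followed by the β-tubulin Tubb5 (9232 ± 631 RPM, SD, n = 3), cytoplasmic actin Actb (8968 ± 2150.3), the growth cone membrane protein Basp1 (8431 ± 2003), the neuronal β-tubulin Tubb2b (6275 ± 3725) and the α-tubulin Tuba1a (4659.6 ± 899.5). Basp1 was at 6788, 10662 and 7842 RPM at D6 and 1375, 1404 and 1414 at D0, and rose (log2 difference 2.59, SE 0.21, adjusted p = 0.000105). Tuba1a, at 5509, 3717 and 4753 RPM at D6 and 1175, 1075 and 686 at D0, rose as well (log2 difference 2.25, SE 0.27, adjusted p = 0.00128). So did Marcks, a membrane-bound actin regulator, which was at 3288, 3801 and 3766 RPM at D6 and 893, 1027 and 527 at D0 (log2 difference 2.15, SE 0.28, adjusted p = 0.00237). All 3 D6 libraries exceeded the D0 libraries for each of these genes. Mdk, the heparin-binding growth factor midkine, had 2496, 3422 and 2749 RPM at D6 and 814, 945 and 1225 at D0 and rose (log2 difference 1.54, SE 0.25, adjusted p = 0.0075), but not without D0 replicate 71 (adjusted p = 0.0575). The share of Tubb2b differed between D6 libraries by several fold (8824, 1999 and 8001 RPM). Its rise (log2 difference 2.43, SE 0.46, adjusted p = 0.0192) passed in only 1 of the 6 fits that left out a library, that without D6 replicate 53 (adjusted p up to 0.076).

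At D0 the largest new shares included those of Tubb5 (7583 ± 663 RPM, SD, n = 3), the chaperone Hsp90ab1 (5829 ± 509), Actb (5569 ± 1004) and the ribosomal protein Rpl8 (4742 ± 1897). Of the Rpl8 reads at D0, 25.5% carried a conversion with 4sU. That is little above its background without 4sU, given with the ribosomal proteins below, so its rank rests mostly on background. Tubb5 and Actb did not pass the test between states (adjusted p = 0.355 and 0.0806). Igf2bp1, an oncofetal RNA-binding protein, was 8th, at 2432, 2564 and 2118 RPM at D0 and 554, 788 and 778 at D6, and fell (log2 difference -1.75, SE 0.24, adjusted p = 0.00386). Hsp90ab1 fell (log2 difference -1.07, SE 0.21, adjusted p = 0.0235), as did the mRNA-binding Serbp1 (log2 difference -1.22, SE 0.25, adjusted p = 0.0278) and the ubiquitin-like modifier Sumo3 (log2 difference -1.66, SE 0.35, adjusted p = 0.0304). These falls passed in 2, 1 and 1 of the 6 fits that left out a library, always including that without D6 replicate 53 (adjusted p up to 0.106). A few genes ranked higher in new than in all reads. The nucleoside diphosphate kinase Nme1 was 9th in new reads at D0 and 65th in all reads, but 42.5% at D6 and 50.4% at D0 of its reads carried a conversion without 4sU. The endoplasmic reticulum chaperone Hspa5 was 10th and 45th, with 3.76% at D6 and 3.50% at D0 of its reads converted without 4sU.

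In the retinoic acid pathway, 10 rose and 0 fell of the 18 members, among 24 found in the files, that had enough new reads to be tested, with a median log2 difference of 3.34 beside -0.39 over all genes tested, of which 2.26% rose and 2.36% fell. Members with few new reads at D0, such as Cyp26a1, Crabp1, Dhrs3 and Nr2f1 with 2, 4, 11 and 19 over the 3 libraries, cleared the filter on low counts through D6 and could pass only as higher, so the tally partly follows from the filter. Of the same members, 11 rose and 1 fell in their share of all reads, and in new RNA 11 rose and 1 fell without D6 replicate 53. Cyp26a1 and Cyp26b1 are cytochromes that oxidise retinoic acid, and Rarb is a receptor that is itself a classical retinoic acid target. The promoters of Rarb and Cyp26a1 are shown because both hold the repeat of receptor half-sites that the receptor pair binds. The letters searched were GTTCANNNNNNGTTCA on both strands, in RefSeq promoters (GRCm38.p6) from 250 bases before to 50 after each start, and this spelling was chosen after others had been tried. Of 32851 such windows, 25 held it (0.0761%), and of 40 matched genes among the 60 in the Hox and retinoic acid lists, only these did. A match is a description of the letters, not of binding. The capitals mark the repeats, at chr14:16575506-16575535 (minus strand, 52 bases before the start) for Rarb and chr19:37697769-37697798 (minus strand, 32 bases before the start) for Cyp26a1.
Rarb: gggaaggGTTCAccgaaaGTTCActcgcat
Cyp26a1: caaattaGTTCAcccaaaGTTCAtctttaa

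Rarb, Cyp26a1, Dhrs3, Crabp1 and Meis2 were named after their values were seen. Rarb was at 154, 457 and 307 RPM at D6 and 25.1, 12.1 and 2.43 at D0. All D6 values lay above all D0 values and Rarb rose (log2 difference 4.52, SE 0.94, adjusted p = 0.0278), though the call was lost without D6 replicate 52 or 54 or D0 replicate 71 or 72 (adjusted p up to 0.0958). Cyp26a1 was at 166, 541 and 326 RPM at D6 and 0, 0.693 and 0 at D0, 861-fold higher at D6, with a 95% counting interval of 238 to 7115 set by 2 new reads in the D0 libraries (adjusted p = 0.00111). Cyp26b1 was at 1929, 668 and 1774 RPM at D6 and 42.2, 24.6 and 25.5 at D0 and rose (log2 difference 5.57, SE 0.52, adjusted p = 0.000252). The retinaldehyde reductase Dhrs3 was at 442, 1244 and 352 against 2.85, 1.39 and 1.21, and the cellular retinoic acid-binding protein Crabp1 at 389, 994 and 301 against 1.14, 0.693 and 0. Of the retinoic acid list, Nr2f1 (COUP-TF1), an orphan nuclear receptor of the developing nervous system, had the smallest adjusted p, with 909.6, 1457 and 1298 RPM at D6 and 3.99, 1.39 and 4.86 at D0 (log2 difference 8.51, SE 0.58, adjusted p = 3.44e-05). Hox cofactors of the TALE class were among those that rose. Pbx3 was at 936, 1570.4 and 883 RPM at D6 and 272, 241 and 153 at D0 (log2 difference 2.35, SE 0.37, adjusted p = 0.0075), and Meis2 at 828, 2019 and 671 against 43.3, 65.5 and 46.2.

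Hox genes, the homeobox factors that set position along the body axis, went from nearly none of the new RNA to about 1% of it. They summed to 1.17, 0.874 and 1.13% of new reads in the D6 libraries and 0.00222, 0.00135 and 0.00158% in the D0 libraries. Of 36 Hox genes 14 had enough new reads to be tested, and the others were too low. Those tested cleared the filter on low counts through their D6 reads, so their direction was set by it, and they are described here rather than counted as support. Each was higher at D6, with a median log2 difference of 9.23. Hoxb3 had the largest share, at 1770.3, 1909 and 1539 RPM at D6 and 5.13, 2.42 and 1.82 at D0, with the D6 values within a narrow range (log2 difference 9.10, SE 0.49, adjusted p = 1.89e-05). Hoxa5 came next, at 1086, 1549 and 1586 RPM at D6 and 3.99, 1.04 and 0.607 at D0 (log2 difference 9.54, SE 0.68, adjusted p = 4.48e-05). Hoxb8 was at 1996, 474 and 1583 RPM at D6 and 4.56, 2.08 and 3.04 at D0 (log2 difference 8.71, SE 0.71, adjusted p = 0.000105). In Hoxb8 and Hoxb4 D6 replicate 53 was the lowest of the D6 libraries, yet far above D0. Hoxb4 was at 1358, 575 and 1225 RPM at D6 and 1.71, 1.04 and 1.82 at D0 (log2 difference 9.42, SE 0.59, adjusted p = 2.04e-05). Hoxb6, with 425, 239 and 329 RPM, had no new read at D0 and was at least 766-fold higher (adjusted p = 0.000928). The members that passed were of the Hoxa, Hoxb and Hoxc clusters (Hoxa2 to Hoxa5, Hoxb2 to Hoxb9, Hoxc4 and Hoxc5), the 3′ and middle part of these clusters. The Hoxb3 interval lay at chr11:96346400-96347930 and the Hoxa5 interval at chr6:52201754-52202580 (mm10, 3′ UTRs).

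Of neurogenic transcription factors, 9 rose and 0 fell of the 22 members, among 40 found in the files, that had enough new reads to be tested, with a median log2 difference of 3.22, where 2.26% of all genes rose and 2.36% fell and their median was -0.39. Of the same members 13 rose and 0 fell in their share of all reads, and 10 rose and 0 fell without D6 replicate 53 in new share. Log2 differences in new share reached 9.57 among those that rose. Members with few new reads at D0 cleared the filter on low counts through D6 and could pass only as higher. The list's tally therefore partly follows from the filter. Those that rose were Sox11, Sox4, Pou3f2, Bhlhe22, Onecut2, Nhlh1, Lhx1, Neurog1 and Ebf3. They include proneural factors (Neurog1, Nhlh1), which drive progenitors into neurogenesis, and LIM and Onecut factors of spinal and hindbrain neurons (Lhx1, Onecut2). Sox4, the SoxC partner of Sox11, was at 1546, 645 and 1672 RPM at D6 and 277, 265 and 284 at D0 (log2 difference 2.23, SE 0.39, adjusted p = 0.0115). Lhx1 was at 563, 172 and 715 RPM at D6 and 10.8, 1.73 and 33.4 at D0 (log2 difference 4.99, SE 1.03, adjusted p = 0.0278). Both lost the call without D6 replicate 52 or 54 and without D0 replicate 71 (Sox4) or 70 (Lhx1), with adjusted p up to 0.0678 and 0.0945. The SoxB1 progenitor factor Sox3 did not pass (adjusted p = 0.116), with 814, 255 and 718 RPM at D6 and 1616, 1489.9 and 1069.6 at D0.

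Genes of neuronal structure and synapse took 4.89, 5.53 and 4.84% of new reads at D6 and 0.706, 0.760 and 0.752% at D0. Of 47 tested members 26 rose and none fell, 46 had a log2 difference above 0, and the median was 2.85, where 2.26% of all genes rose, 40.8% lay above 0 and the median was -0.39. In all reads 41 rose, and in new reads 34 did without D6 replicate 53. Members with few new reads over the D0 libraries, such as Mapt (8) and Dcx (24), cleared the filter on low counts through D6. They could pass only as higher, so the list's tally partly follows from the filter. Among microtubule proteins, the tau gene Mapt was at 1086, 2254 and 1398 RPM at D6 and 2.28, 0.693 and 1.21 at D0 (log2 difference 10.14, SE 0.59, adjusted p = 1.89e-05). Dcx, the doublecortin of migrating neurons, was at 2081, 2108 and 1878 RPM at D6 and 7.41, 2.77 and 1.82 at D0 (log2 difference 8.98, SE 0.56, adjusted p = 2.04e-05). Map2, the dendritic microtubule protein, was at 1399, 229.9 and 868 RPM at D6 and 25.7, 10.7 and 13.4 at D0 (log2 difference 5.65, SE 0.74, adjusted p = 0.00261). Tubb3, the β-tubulin of neurons, had 1005, 1994 and 1023 RPM at D6 and 220.1, 190.1 and 304 at D0 (log2 difference 2.49, SE 0.38, adjusted p = 0.00612). For each of these the lowest D6 library lay above the highest D0 library. Both neuronal ELAV RNA-binding proteins tested here rose. Elavl3 was at 2360.2, 2251 and 2548 RPM at D6 and 38.8, 104 and 85.03 at D0 (log2 difference 4.97, SE 0.41, adjusted p = 0.000108) and Elavl4 at 1512, 2364 and 1592 RPM at D6 and 37.6, 40.2 and 23.1 at D0 (log2 difference 5.75, SE 0.39, adjusted p = 3.31e-05). The adhesion molecule Ncam1 had 1918, 3031 and 1849 RPM at D6 and 213, 209.5 and 198 at D0 (log2 difference 3.45, SE 0.29, adjusted p = 0.000141). The tubulin-binding Stmn2 had 965, 802 and 977 RPM at D6 and 241, 240.3 and 207 at D0 (log2 difference 1.99, SE 0.30, adjusted p = 0.00605). Mapt, Dcx, Map2, Tubb3, Elavl3, Elavl4, Ncam1 and Stmn2 passed in all 6 fits that left out a library.

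**Figure D3:**
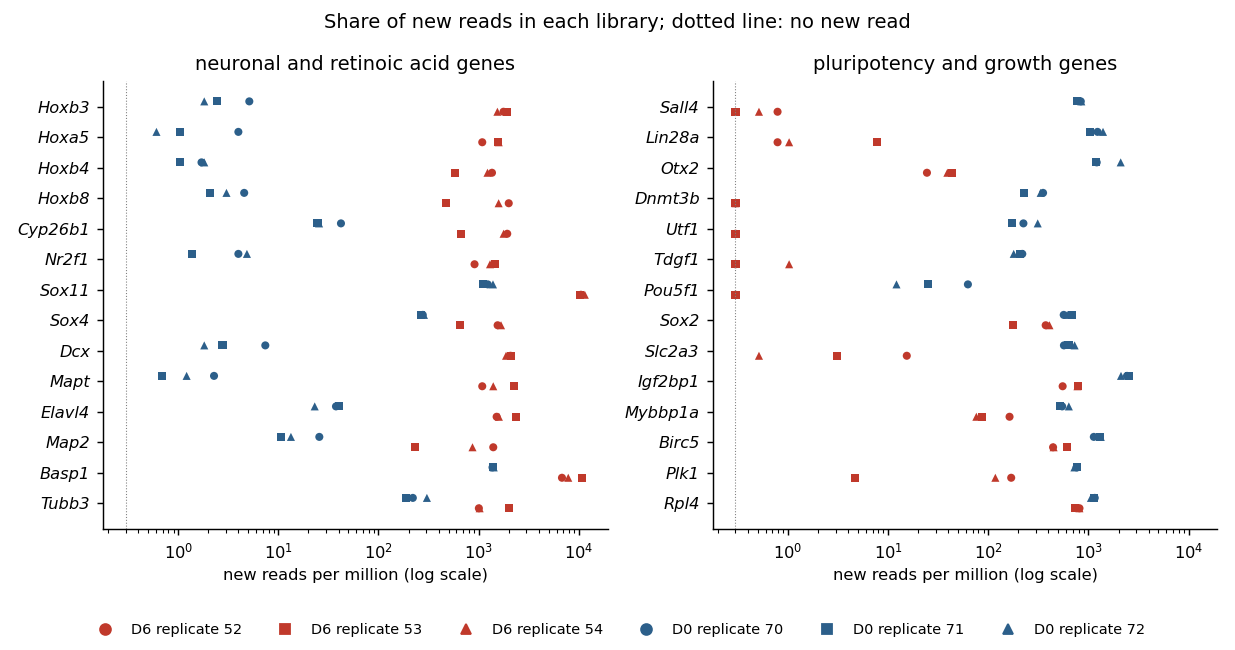
New RNA shares in RPM on a log scale for neuronal and retinoic acid genes (left) and genes of pluripotency and growth (right), called or not, with 1 symbol per library and a dotted line where a library had no new read. Hoxb3 and Cyp26b1 lie far to the right in the D6 libraries, while Utf1 and Dnmt3b have no new read in any of them.

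Of 34 pluripotency genes 19 had enough new reads to be tested, of which 10 fell and none rose in new share, and 17 fell in read share. Over all genes tested 2.36% fell in new share, with a median log2 difference of -0.39, and 5.53% fell in read share. Pluripotency genes seen in D0 alone cleared the filter on low counts through D0. They could pass only as lower, so the list's tally partly follows from the filter. The median log2 difference in new share was -8.78, or -6.35 when the 7 members without a new read at D6 were held at their bound of 3 reads. Leaving out D6 replicate 53, 13 fell. Those that fell were Sall4, Otx2, Lin28a, L1td1, Dnmt3b, Utf1, Tdgf1, Zscan10, Trim71 and Gdf3. Dnmt3b, the de novo DNA methyltransferase, was at 353, 226 and 334 RPM at D0 and had no new read at D6, at least 494-fold lower (adjusted p = 0.00119). Lin28a, which blocks let-7 maturation, was at 0.789, 7.77 and 1.03 RPM at D6 and 1235, 1034 and 1401 at D0 (log2 difference -9.04, SE 0.82, adjusted p = 0.00022). Sall4, a zinc finger factor of stem cells, was at 0.789, 0 and 0.515 RPM at D6 and 840.1, 769 and 850.4 at D0, 1383-fold lower at D6, with a 95% counting interval of 473 to 6706 set by 3 new reads in the D6 libraries (adjusted p = 1.89e-05). Otx2, a homeobox factor of primed pluripotency and the forebrain, was at 24.5, 43.5 and 39.1 RPM at D6 and 1211, 1203 and 2103 at D0 (log2 difference -5.41, SE 0.42, adjusted p = 7.52e-05). The Nodal co-receptor Tdgf1 was at 0, 0 and 1.03 RPM at D6 and 219, 207 and 179.8 at D0, 520.0-fold lower at D6, with a 95% counting interval of 144 to 4298 set by 2 new reads in the D6 libraries (adjusted p = 0.00605). Utf1, a chromatin protein of undifferentiated cells, was at least 382-fold lower (adjusted p = 0.00303). Sox2, which pluripotent cells and neural progenitors share, did not pass (adjusted p = 0.192), with 375, 177 and 409 RPM at D6 and 567, 686 and 615 at D0.

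Among called genes with at least 50 RPM in the higher state, the largest rises were taken by fitted log2 difference. They were of genes with almost no new read at D0. For genes without a new read at D0 this order is not a measured rank. Their bounds, as low as 142-fold, lie below the fitted 1132-fold rise of Mapt, which had new reads at D0. Pdzrn4 was at 256, 222 and 377 RPM at D6 and 0, 0 and 0.607 at D0, 1871-fold higher at D6, with a 95% counting interval of 335 to 73962 set by 1 new read in the D0 libraries (adjusted p = 0.00107). Pou3f3, a POU-domain factor of the developing brain, was at 150.4, 267 and 168 RPM and at least 359.8-fold higher (adjusted p = 0.00504). Like Hoxb6 above, it had no new read in any D0 library, and the same held for the 7 genes that follow. Rab3c, a small GTPase of synaptic vesicles, was at least 267-fold higher, and the homeobox and paired-box factors of the midbrain and hindbrain Pax2 and Gbx2 were at least 247-fold higher and at least 201-fold higher. The scaffold gene Lin7a was at least 226-fold higher, the retrotransposon-derived Rtl5 at least 179-fold higher, the collapsin response mediator Dpysl4 at least 147-fold higher and the neuropeptide precursor Pnoc at least 142-fold higher. With 1 or no new read at D0, these genes were tested through their D6 reads alone and could pass only as higher, so their calls describe them and their direction was set by the filter. Pdzrn4, Hoxb6 and Pou3f3 passed in each of the 6 fits that left out a library. Rab3c passed in 3 (lost without D6 replicate 52 or 54 or D0 replicate 71), Gbx2 in 2 (without D6 replicate 53 or 54), and Rtl5, Lin7a, Pax2, Pnoc and Dpysl4 only without D6 replicate 53 (adjusted p up to 0.12).

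Apart from Dnmt3b and Utf1, given above, the largest falls by the naming rule, taken by fitted log2 difference, included the genes that follow. For genes without a new read at D6 this order is not a measured rank. Their bounds lie below the fitted 527-fold fall of Lin28a. Prtg, the immunoglobulin-family receptor protogenin, was at 0, 1.55 and 0 RPM at D6 and 787, 679 and 655 at D0. By new reads summed over libraries it was 3599-fold lower at D6 (adjusted p = 0.000134). Its 95% counting interval, 646 to 142176, was set by 1 new read in the D6 libraries. The membrane-bound chemokine Cx3cl1, at 308, 358 and 150.0 RPM at D0, had no new read at D6 and was at least 494-fold lower (adjusted p = 0.00249). Enpp2 (autotaxin), which makes lysophosphatidic acid, was at 237, 255 and 199 and at least 402-fold lower (adjusted p = 0.00289). Neither had a new read in any of the 3 D6 libraries, and nor had the genes that follow, although all of them had some reads there, from 2 for Itgb5 to 94 for Lix1 over the D6 libraries. Timp3, an inhibitor of metalloproteinases, was at least 321-fold lower, the integrin subunit Itgb5 at least 266-fold lower, the ETS factor Etv5 at least 252-fold lower, Lix1 at least 267-fold lower and Zscan10 at least 289-fold lower. With 1 or no new read at D6, these genes were likewise tested through D0 alone and could pass only as lower. Prtg, Cx3cl1 and Enpp2 passed in each of the 6 fits that left out a library. The calls of Timp3, Zscan10, Etv5, Lix1 and Itgb5 were lost without D0 replicate 72, those of Etv5, Lix1 and Itgb5 also without D0 replicate 70, and those of Lix1 and Itgb5 also without D0 replicate 71 (adjusted p up to 0.0886).

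Ribosomal protein mRNAs start with a terminal oligopyrimidine (TOP) tract, which ties their translation and stability to mTOR signaling and to the TOP-binding protein LARP1, a subject of the study. They took 1.04, 0.828 and 1.03% of new reads at D6 and 1.56, 1.58 and 2.23% at D0, and 2.09, 1.64 and 1.93% and 2.86, 2.80 and 3.43% of all reads. Their reads held 12.6 T positions at D6 and 12.7 at D0, against 23.6 and 23.3 per read over the libraries. Of 80 members in the files 47 had enough new reads to be tested. Of these, 2 fell and none rose in new share, where 2.36% of all genes fell. Above 0 lay 7, where 40.8% of all genes did, and the median log2 difference was -0.66 beside -0.39 over all genes. In read share 6 fell, and without D6 replicate 53 3 fell in new share. Rpl8, of the large subunit, fell, at 1243, 1097 and 1156 RPM at D6 and 3735, 3561 and 6930.4 at D0 (log2 difference -2.02, SE 0.28, adjusted p = 0.00373). For Rpl8 17.3% at D6 and 23.5% at D0 of reads carried a conversion without 4sU, and 25.5% did at D0 with 4sU. With that background subtracted the Rpl8 difference turned to 2.52 (adjusted p = 0.412). Rpl4, which the study names, was at 815, 733 and 814 RPM at D6 and 1158, 1130.4 and 1061 at D0 and did not pass (log2 difference -0.50, SE 0.24, adjusted p = 0.304). With the background subtracted Rpl4 passed (-0.61, adjusted p = 0.0258). Its read share fell (-0.78, SE 0.20, adjusted p = 0.0358), but among the 6 fits that left out a library only in that without D6 replicate 53 (adjusted p up to 0.182), and not with TMM scaling (adjusted p = 0.0522). Larp1 itself, at 740.3, 561 and 624 RPM at D6 and 1426, 1568 and 827 at D0, did not pass in new share (log2 difference -0.99, SE 0.31, adjusted p = 0.0869) and passed with the background subtracted (-1.06, adjusted p = 0.0372).

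Among all genes tested, 2.26% rose and 2.36% fell in new share, and 5.53% fell in read share. Of the other TOP genes, 1 of 16 fell in new share and none rose, with a median of -0.56. In read share 4 of them fell, and 2 fell in new share without D6 replicate 53. The member that fell was the nucleolar chaperone Npm1, named after its values were seen, with 369, 488 and 322 RPM at D6 and 998, 1175 and 1147 at D0 (log2 difference -1.50, SE 0.29, adjusted p = 0.0216). Its call passed only in the fit without D6 replicate 53 among the 6 that left out a library (adjusted p up to 0.0948). The elongation factor Eef2 did not pass (log2 difference -0.39, SE 0.22, adjusted p = 0.411), nor did Vim, the intermediate filament vimentin (log2 difference 0.94, SE 0.30, adjusted p = 0.0897). Of 43 ribosome biogenesis genes 2 lay above 0, with a median of -1.87, against the same 40.8% and -0.39 over all genes, while 4 fell and none rose, and 11 fell in read share. Without D6 replicate 53, 11 fell in new share. Nucleolin (Ncl), which binds pre-rRNA, was at 808, 629 and 616 RPM at D6 and 1903, 1801 and 1461 at D0 (log2 difference -1.33, SE 0.25, adjusted p = 0.0185). Mybbp1a, a nucleolar transcription regulator, was at 163, 86.99 and 76.2 RPM at D6 and 548, 516 and 638 at D0 (log2 difference -2.38, SE 0.44, adjusted p = 0.0167). Both lost the call without D6 replicate 54 or D0 replicate 70 or 71, and Mybbp1a also without D0 replicate 72 (adjusted p up to 0.0876). Ppan and Utp20, of the large and small subunit pathways, fell too. Of 71 mitochondrial ribosomal proteins none passed in new share, 57 lay below 0 (median -0.84), and 7 fell in read share, while 4 fell in new share without D6 replicate 53. In the MYC network none of 10 members passed (median 0.89) and 1 rose without that library, and Myc itself was too low to test, with 11 new reads over the D0 libraries and 0 over the D6 libraries.

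Of 31 tested mitosis genes 0 had a log2 difference above 0, where 40.8% of all genes did, and the median was -1.49 beside -0.39. Of these 3 fell, where 2.36% of all genes did: Birc5 (survivin), the kinase Aurka and the kinetochore protein Ndc80. When D6 replicate 53 was left out, 10 fell, and 5 fell in read share. Birc5 was at 444, 609 and 450.0 RPM at D6 and 1134, 1316 and 1331 at D0 (log2 difference -1.33, SE 0.27, adjusted p = 0.0264), and passed only in the fit without D6 replicate 53 among the 6 (adjusted p up to 0.103). Aurka, named after its values were seen, was at 76.2, 77.7 and 147 RPM at D6 and 488, 396 and 453 at D0 (log2 difference -2.15, SE 0.46, adjusted p = 0.032), and passed only without D6 replicate 53 or 54 (adjusted p up to 0.127). The polo-like kinase Plk1 (log2 difference -2.93, SE 0.87, adjusted p = 0.0685) and the topoisomerase Top2a (log2 difference -1.27, SE 0.52, adjusted p = 0.204) did not pass, though both did without D6 replicate 53 (adjusted p = 0.00302 and 0.00662), and Plk1 also with DESeq2 (adjusted p = 0.00388). Of 36 DNA replication genes none passed, 4 lay above 0 (median -1.42), and 6 fell in read share, while 5 fell in new share without D6 replicate 53. The helicase subunit Mcm7 was at 306, 457 and 373 RPM at D6 and 589, 762 and 728 at D0 (log2 difference -0.87, SE 0.32, adjusted p = 0.142).

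Over all genes 2.26% rose and 2.36% fell in new share. In glycolysis, 2 of 18 members fell and none rose (median -0.53), 5 fell and 1 rose in read share, and 4 fell in new share without D6 replicate 53. Both that fell are transporters. The lactate exporter Slc16a3 (MCT4) was at 0, 1.55 and 0 RPM at D6 and 371, 334 and 658 at D0. By new reads summed over libraries it was 2197-fold lower at D6 (adjusted p = 0.000722). Its 95% counting interval, 394 to 86817, was set by 1 new read in the D6 libraries. The glucose importer Slc2a3 (GLUT3) was at 15.4, 3.11 and 0.515 RPM at D6 and 570.3, 634 and 729 at D0 (log2 difference -6.55, SE 0.98, adjusted p = 0.00555). For Slc16a3 19.1% at D6 and 31.8% at D0 of reads carried a conversion without 4sU, and its call was lost with that background subtracted (log2 difference -4.17, adjusted p = 0.0768). The glycolytic enzyme Aldoa did not pass (log2 difference -1.51, SE 0.47, adjusted p = 0.0853). In cholesterol synthesis, 1 of 24 rose (median 0.55), 6 rose in read share, and 2 in new share without D6 replicate 53. The member that rose, Hmgcs1, makes HMG-CoA at the head of the pathway, and was at 1161, 802 and 882 RPM at D6 and 326, 347 and 263 at D0 (log2 difference 1.60, SE 0.31, adjusted p = 0.0206). It passed only in the fit without D6 replicate 53 among the 6 (adjusted p up to 0.0773). The acetyl-CoA thiolase Acat2 did not pass (log2 difference 1.32, SE 0.40, adjusted p = 0.0737).

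Nuclear-encoded subunits of oxidative phosphorylation had a higher summed share of new RNA at D6 and a like summed share of reads. They took 1.24, 1.496 and 1.11% of new reads at D6 and 0.853, 0.793 and 0.941% at D0, without overlap, but 1.53, 1.51 and 1.41% and 1.58, 1.49 and 1.61% of all reads, where the states overlapped. No member of 66 passed alone in either measure, 51 lay above 0 in new share and 35 in read share, against 40.8% and 44.5% of all genes, and the median new share difference was 0.62. Without D6 replicate 53, 2 rose in new share, where 536 of the 13100 tested transcripts did. Of the ATP synthase subunits, Atp5a1 was at 320.0, 888 and 471 RPM at D6 and 268, 279 and 342 at D0 (log2 difference 0.92, SE 0.43, adjusted p = 0.285). Atp5pb was at 393, 1021 and 495 RPM at D6 and 281, 228 and 278 at D0 (log2 difference 1.28, SE 0.42, adjusted p = 0.106). Atp5g3 was at 609, 601 and 370.2 RPM at D6 and 505, 706 and 470.1 at D0 (log2 difference -0.09, SE 0.34, adjusted p = 0.945), and Atp5j2 at 698, 6.21 and 579.7 RPM at D6 and 295, 291 and 425 at D0 (log2 difference 0.35, SE 1.01, adjusted p = 0.926). The states overlapped for Atp5a1, Atp5g3 and Atp5j2. Of 34 proteasome subunits none passed in new share (median -0.43), where 2.26% of all genes rose and 2.36% fell. In read share 2 of them fell, where 5.53% of all genes did. Left without D6 replicate 53, 2 fell in new share, where 825 of the 13100 tested transcripts did.

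**Figure D4:**
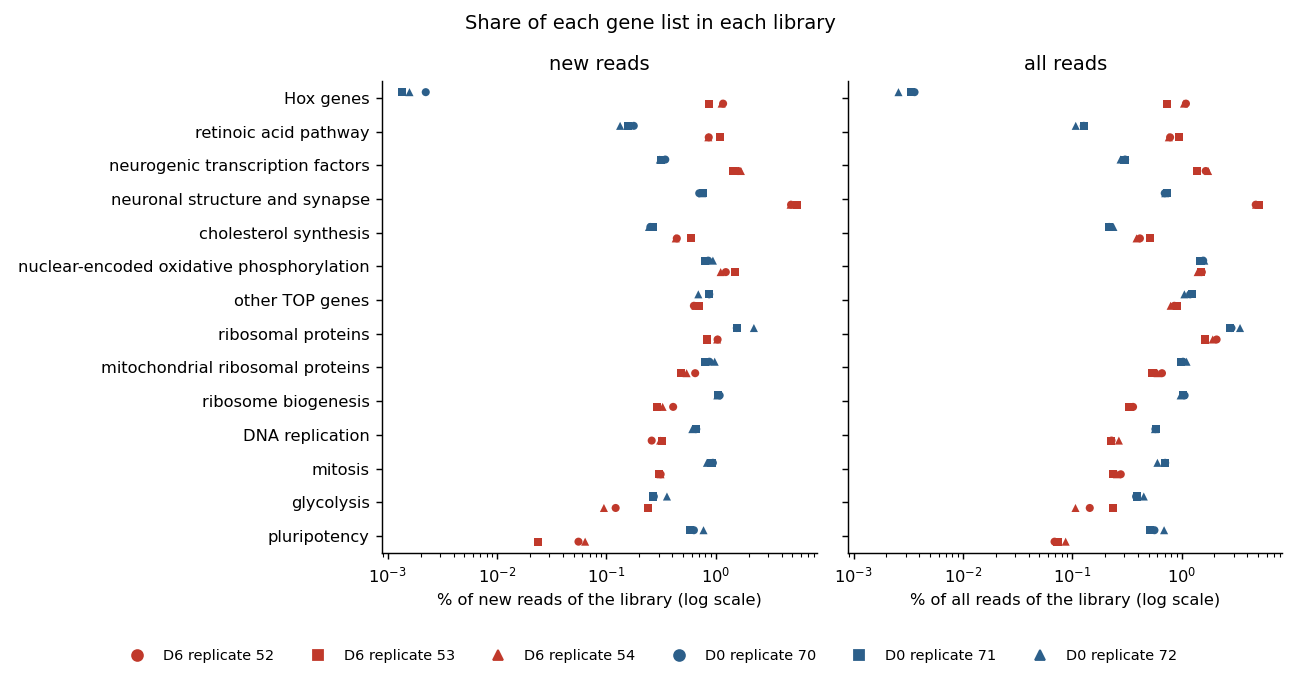
Percent of each library's new reads (left) and of all its reads (right) that fell on each gene list, on log scales, with 1 symbol per library. The Hox genes are at 0.874 to 1.17% of new reads in the D6 libraries and at 0.00135 to 0.00222% at D0, and the oxidative phosphorylation genes separate by state among new reads but not among all reads.

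Among Notch, Id and Hes genes, 1 of 17 rose and 1 fell (median 0.71), where 2.26% and 2.36% of all genes did. The counts were 4 and 1 in read share, and 1 and 2 in new share without D6 replicate 53. Hes5, the Notch effector of neural progenitors, rose, at 653, 231 and 354 RPM at D6 and 9.13, 0 and 1.82 at D0 (log2 difference 6.85, SE 1.29, adjusted p = 0.0183), though not without D6 replicate 52 or 54 or D0 replicate 72 (adjusted p up to 0.0816), nor on conversions in place of reads (adjusted p = 0.0667). Id1, a BMP target that holds back differentiation, fell, at 41.4, 4.66 and 50.5 RPM at D6 and 378, 352 and 414 at D0 (log2 difference -3.54, SE 0.78, adjusted p = 0.0372), but passed only without D6 replicate 53 among the 6 fits (adjusted p up to 0.11). Id2 did not pass (log2 difference -0.99, SE 0.29, adjusted p = 0.0622). Of 21 immediate early genes, Jund rose (788, 1078 and 552 RPM at D6 and 242, 205 and 262 at D0, log2 difference 1.77, SE 0.36, adjusted p = 0.0256) and Ccn2 fell (median of the list -2.13), with 2 higher and 3 lower both in read share and in new share without D6 replicate 53. Jund lost its call without D6 replicate 52 or any of the D0 replicates (adjusted p up to 0.0997), and Jun did not pass (log2 difference 0.68, SE 0.57, adjusted p = 0.663). Of 13 p53 targets, which genotoxic and nucleolar stress raise, none rose and Phlda3 fell (median -0.094). It was among the genes below 20 RPM with no new read at D6, and no p53 target passed without D6 replicate 53.

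Of 196 Zfp zinc finger genes, 2 rose (Zfp503 and Zfp422), 5 fell, and the median was 0.21, above the -0.39 of all genes, with 12 higher and 1 lower in read share. Over all genes 2.26% rose and 2.36% fell. Among the Zfp genes 7 rose and 3 fell in new share without D6 replicate 53. Of those that fell, Zfp105, Zfp429, Zfp867 and Zfp933 were genes below 20 RPM with no new read at D6. Zfp503 (Nolz1), a repressor of the developing striatum and spinal cord, was at 371, 733 and 379 RPM at D6 and 5.70, 1.39 and 0 at D0 (log2 difference 7.69, SE 1.07, adjusted p = 0.00373). Among markers of other cell types, the glial glutamate transporter Slc1a2, at 35.1, 196 and 48.4 RPM at D6 and 0.570, 0 and 0.607 at D0, was 189.7-fold higher at D6, with a 95% counting interval of 52.1 to 1574 set by 2 new reads in the D0 libraries (adjusted p = 0.0481), and passed only without D6 replicate 53 among the 6 fits (adjusted p up to 0.149), while 2 of 4 tested glial markers rose there. The other glutamate transporter of glia and progenitors, Slc1a3 (log2 difference -0.40, SE 0.59, adjusted p = 0.839), and the radial glial Fabp7 (log2 difference 6.76, SE 2.12, adjusted p = 0.0869) did not pass, though Fabp7 did with DESeq2 (adjusted p = 0.000889) and without D6 replicate 53 (adjusted p = 0.0281). Sparc, a matrix protein of parietal endoderm and many other cells, fell (289, 537 and 409 RPM at D6 and 1050.0, 918 and 1728 at D0, log2 difference -1.58, SE 0.36, adjusted p = 0.0408), likewise only without D6 replicate 53 among these fits (adjusted p up to 0.127). None of the 3 tested mesoderm and mesenchyme markers passed, among them the smooth muscle actin Acta2 (adjusted p = 0.172), and 1 fell without D6 replicate 53.

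New shares were then set against read shares transcript by transcript, asking whether a transcript's labeled fraction, relative to that of its library, differed between states. Of 12043 transcripts with at least 20 reads on average in each state, 3 passed (0.0249%), all of them isoforms of Slc16a3 with the same counts, and 858 had an unadjusted p below 0.05. Slc16a3 reads were labeled to 0.595% ± 1.03 (SD, n = 3) at D6 and 33.5% ± 1.78 (SD, n = 3) at D0 (log2 difference -5.94, SE 0.61, adjusted p = 0.0443). The call was lost in every fit that left out a library other than D6 replicate 53 (adjusted p up to 0.464) and with the background subtracted (-0.21, adjusted p = 0.946). Without D6 replicate 53, 11 transcripts of 9 genes passed. Actb and the α-tubulin Tuba1b were higher at D6, and D8Ertd738e, Slc16a3, Cdk6, Lifr, Elob, Pim2 and Lin28a lower. Of these, Elob and D8Ertd738e had 48.6 to 67.4% of reads with a conversion without 4sU.

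Actb had a like share of all reads in both states and a larger labeled fraction at D6. Its read share overlapped between states, 8586 ± 1262 RPM at D6 and 8598 ± 1617 at D0 (SD, n = 3 each), while its reads were labeled to 52.01% ± 3.78 (SD, n = 3) at D6 and 16.04% ± 0.215 (SD, n = 3) at D0. At D0 it was the most abundant gene in reads and 4th in new reads. Relative to the library its labeled fraction was higher at D6 in every library, but the test did not call it with all libraries (log2 difference 0.68, SE 0.078, adjusted p = 0.0845), and did without D6 replicate 53 (0.59, adjusted p = 0.0307). Of the other genes with the smallest p-values, none passed. The genes that follow had a higher labeled fraction at D6 relative to the library, short of the test. Hint1, a nucleotide-binding hydrolase, was labeled to 52.8% ± 5.14 (SD, n = 3) at D6 and 10.7% ± 2.17 (SD, n = 3) at D0 (log2 difference 1.28, SE 0.20, adjusted p = 0.188). Atp5pb was labeled to 70.3% ± 5.24 (SD, n = 3) at D6 and 16.8% ± 3.58 (SD, n = 3) at D0 (log2 difference 1.04, SE 0.21, adjusted p = 0.191), and Tuba1a to 53.9% ± 5.69 (SD, n = 3) at D6 and 17.4% ± 2.24 (SD, n = 3) at D0 (log2 difference 0.61, SE 0.11, adjusted p = 0.188). Uba1, the ubiquitin-activating enzyme, was labeled to 41% ± 3.65 (SD, n = 3) at D6 and 11.4% ± 0.594 (SD, n = 3) at D0 (log2 difference 0.83, SE 0.13, adjusted p = 0.188). Mapt was labeled to 45.1% ± 0.879 (SD, n = 3) at D6 and 8.42% ± 2.33 (SD, n = 3) at D0 (log2 difference 1.53, SE 0.28, adjusted p = 0.188), with 8 new of 103 reads over the D0 libraries, and Mdk to 45.2% ± 1.66 (SD, n = 3) at D6 and 14.2% ± 1.99 (SD, n = 3) at D0 (log2 difference 0.65, SE 0.14, adjusted p = 0.191). In the other direction, the smallest p-values included those of Rnf4, a SUMO-targeted ubiquitin ligase, and Emb, an immunoglobulin-family glycoprotein. Rnf4 was labeled to 0.152% ± 0.262 (SD, n = 3) at D6 and 27.5% ± 8.19 (SD, n = 3) at D0, and Emb to 0.370% ± 0.641 (SD, n = 3) at D6 and 22.3% ± 4.23 (SD, n = 3) at D0. They had 387 and 200 reads over the D6 libraries, against 7268 for Hint1. For Rpl4 the labeled fraction was 30.6% ± 6.42 (SD, n = 3) at D6 and 12.3% ± 1.16 (SD, n = 3) at D0 (log2 difference 0.27, SE 0.14, adjusted p = 0.86).

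As lists, the conversion rate (conversions per covered T) relative to that of the whole library was 0.851, 0.987 and 0.804 for oxidative phosphorylation genes in the D6 libraries and 0.572, 0.575 and 0.626 in the D0 libraries, so these transcripts carried less label than the average in both states and came nearer to it at D6. Of 66 members, 56 lay above 0 in new over total (median 0.57), where 38.4% of all genes did (median -0.20). For ribosomal proteins the summed rate was 0.570, 0.603 and 0.627 at D6 and 0.748, 0.776 and 0.848 at D0. By gene, 21 of 46 members were above 0 in new over total, with a median of -0.11. Rpl8 had the largest new share of the list at D0, with 23.5% of its reads converted without 4sU there, and its part in the summed rate was not tested. No member of either list passed the test. The number of T positions in a read bore on the labeled fraction. In tertiles of 7698 groups of overlapping transcripts by T positions per read, the labeled fraction rose from 47.9 to 67.4% in D6 replicate 52 and from 19.5 to 30.96% in D0 replicate 70, and rose likewise in the other libraries. The median new over total difference was -0.066, -0.20 and -0.32 from the fewest to the most T positions, and the part of T content in the lists' values was not tested. Adjusted for T positions per read, no transcript passed.

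**Figure D5:**
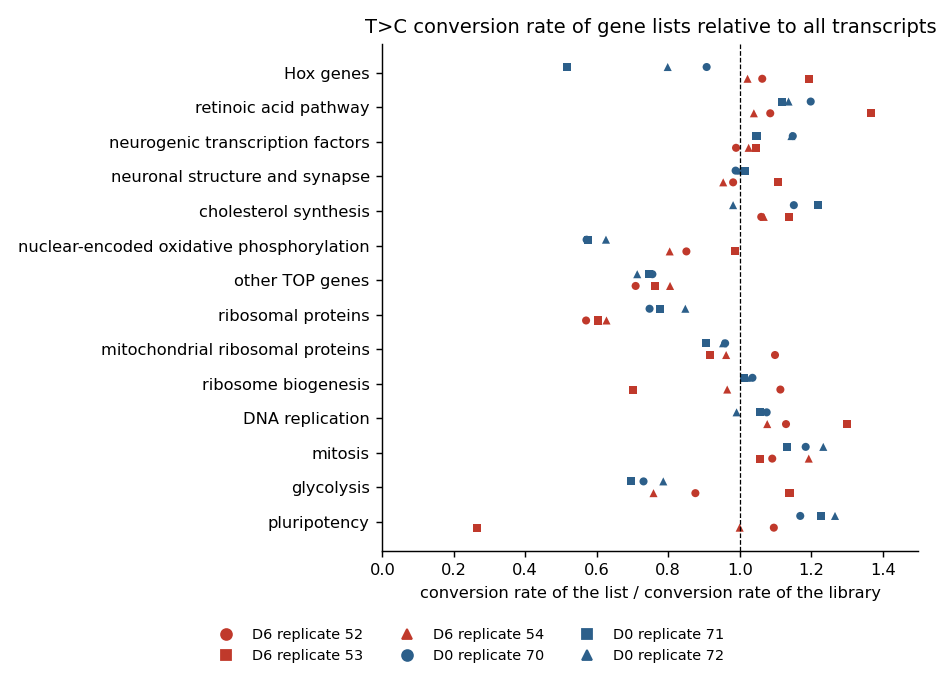
Conversions per covered T of each gene list divided by that of its library, 1 symbol per library, with a dashed line at 1 where a list equals the library. Oxidative phosphorylation genes lie at 0.804 to 0.987 in the D6 libraries and 0.572 to 0.626 in the D0 libraries, and ribosomal proteins at 0.570 to 0.627 and 0.748 to 0.848.

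Within each state, genes with at least 200 reads in every library were ordered by labeled fraction, leaving out from the named genes those with over 20% converted reads without 4sU. At D6, 1554 genes had a median of 54.02%, and the 10th and 90th percentiles were 32.6 and 71.2%. At D0, 4765 genes had a median of 25.9%, with 10th and 90th percentiles of 14.2 and 38.1%. The most labeled at D6 were Rsrc2, a splicing-related protein (91.4% ± 6.84, SD, n = 3), and Cdc20, the mitotic activator of the anaphase-promoting complex (90.9% ± 6.68), and the least labeled were Mark3, a microtubule affinity kinase (6.55% ± 6.62), and Sephs1 (8.73% ± 15.1). Ribosomal protein genes were among the least labeled at D6: Rps15 at 13.1% ± 9.54 and Rpsa at 13.9% ± 13.01. Rps15 reads held 3.57 T positions, against 23.6 ± 0.154 per read over the D6 libraries. At D0 the most labeled were the spliceosome factor Cwc25 (57.6% ± 6.75) and the condensin subunit Smc2 (54.6% ± 11.2), and the least labeled Tmem160 (2.11% ± 0.961) and Msto1 (2.14% ± 1.74). Tmem160 reads held 7.60 T positions. The SDs show that single genes at the ends were often far apart between libraries, as for Mark3, where 1 library had no new read.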

How the data were processed

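Per the file headers and the labels, the authors aligned 101-bp single-end QuantSeq reads to mm10 and counted them in 3′ UTR intervals with slamdunk 0.3.3, masking called variants. The deposited counts used here were all reads, reads with a conversion, conversions on T and coverage of T per interval, without molecular identifiers or normalization. Intervals of a RefSeq transcript were summed, and library totals counted each distinct interval once. Transcripts that overlap share reads. Shares were compared with edgeR 4.0.16 (quasi-likelihood, library totals as size, filterByExpr, adjusted p under 0.05, R 4.3.3), and new over total with the log of reads as offset (prior 0.5). Both were first tried on simulated data, in which none of the smaller differences was called and many of the larger ones were missed. DESeq2 1.42.0 and limma 3.58.1 served as alternatives, with other filters, counts and left-out libraries. Summaries used Python 3.11.15, pandas 2.3.3 and scipy 1.17.1. Genes were named by a rule: the 10 largest differences in each direction among called genes without overlap and with at least 50 RPM, the 10 largest shares per state, the 8 smallest p in each direction of new over total, the 4 largest members of each of 23 lists, and Map2, Rpl4, Larp1 and Myc. Other list members that passed, and Cyp26a1, Rarb, Dhrs3, Crabp1 and Meis2, were named after their values were seen. Members and lists were chosen with earlier results of these data known. Intervals cover counting error only, and a group without a new read was set to a floor of 3 reads for folds. Non-coding transcripts were not analysed here, and some genes that the rule named are not reported here.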

Additional observations from a re-analysis of the deposited data

How the results depend on the processing

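The 639 new share calls (331 higher, 308 lower) became 546 with TMM scaling, 1839 with DESeq2 (654 higher, 1185 lower), 666 with no filter on low counts, 1001 with a stricter filter (414 higher, 587 lower), 383 with 1 transcript per group of overlapping transcripts, 368 on conversions in place of reads and 1658 (446 higher, 1212 lower) with the background of the libraries without 4sU subtracted. Leaving out 1 library gave 230 (without D0 replicate 71) to 1361 (without D6 replicate 53) calls. The 1576 read share calls became 1560 with TMM, 2698 with DESeq2 and 897 with 1 transcript per group, and 629 (without D0 replicate 70) to 3083 (without D6 replicate 53) without 1 library. For new over total, limma, conversions over T positions, at least 100 reads, adjustment for T positions, median centring and 1 transcript per group each gave 0 calls, background subtraction 1 (Klhdc4), and leaving out 1 library 0 to 11. Leaving out transcripts with over 20% of converted reads without 4sU, chosen after seeing the data, gave 585, 1489 and 0 calls. The difference in labeled fraction was 26.01 points with the background subtracted, 2.36 in conversions per 100 T, and 22.8 to 29.8 without 1 library (exact permutation p = 0.2, the smallest possible there). With the background subtracted, Nme1 turned from lower to higher (3.99, adjusted p = 0.243) and Rpl8 likewise (2.52, adjusted p = 0.412), and the cause was not tested. On conversions in place of reads, the calls of Rarb, Sox4, Lhx1, Hes5, Id1, Hsp90ab1, Hspa5, Serbp1, Sumo3, Hmgcs1, Hint1, Uba1, Pnoc, Dpysl4, Aurka and Slc1a2 were lost (adjusted p up to 0.11). The calls of Hspa5, Uba1 and Slc1a2 were also lost with TMM scaling (adjusted p up to 0.0574), and those of Id1 and Sparc with the background subtracted (adjusted p up to 0.108). Calls were gained by Mcm7, Aldoa and Id2 without D6 replicate 53, by Acta2 without D6 replicate 54, by Aldoa, Id2 and Acta2 with DESeq2, by Aldoa, Acat2 and Id2 with the background subtracted, and by Plk1 and Actb with no filter on low counts (adjusted p 0.00994 to 0.0484). The differences of Atp5g3 and Atp5j2, not called under any alternative, turned to 0.080 on conversions and to -2.04 with the background subtracted, and ranged from -0.21 to 0.11 and from -0.19 to 0.92 without 1 library (adjusted p from 0.0669 up). Over the 100 genes with a test of the new share, 1095 alternative values kept direction and side of the threshold, 173 lost the call, 25 gained it and 7 reversed. No paired analysis was possible because the groups share no replicate number. The calls are limited by 3 libraries a state, by D6 replicate 53 with the fewest new reads, and by the dose of 4sU, which differed with the state.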
